A study of Mus musculus with 12 samples.

Results

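Expression of the unfolded protein response and the secretory machinery was examined in cultured control and Smad7-KO mouse cardiac fibroblasts, before and after TGF-β1. The set held 36 of the 35275 genes in the deposited count table, chosen by gene symbol. It had 9 chaperones and cochaperones of the endoplasmic reticulum (ER), 2 lectin chaperones, 4 protein disulfide isomerases and the collagen chaperone Serpinh1. There were 5 stress sensors and transcription factors, and 3 genes of the PERK arm and the integrated stress response. The rest were 6 genes of ER-associated degradation, and 6 genes of translocation, COPII export and retrieval. All 36 passed the filter on low counts and were among the 15150 genes tested. The fibroblasts came from hearts of 12-week-old C57BL/6 mice that carry a floxed Smad7 gene and were used at passage 2. Cells of every group were infected with adenovirus for 48 hours at a multiplicity of infection of 100, and Smad7-KO cells received a virus expressing the Cre recombinase. Control cells received a virus that the sample labels describe as expressing GFP and the study's methods as empty. Each genotype was left without TGF-β1 or given TGF-β1 at 10 ng/ml, for a time that 1 label field gives as 2 hours and another as 4 hours. Each of the 4 combinations has 3 libraries. They are called unstimulated or TGF-β1, control or Smad7-KO. Because no library held Cre without the floxed gene, effects of Cre and of Smad7 loss cannot be told apart. The 3 samples of a group are described as independent, but no animals are named, so p values measure the spread between these samples, which may be technical.

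The ER folds, glycosylates and disulfide-bonds proteins that will be secreted, and collagen is among its heaviest loads in a fibroblast. When unfolded protein accumulates there, 3 membrane sensors respond: IRE1 (encoded by Ern1) splices Xbp1 mRNA, PERK (Eif2ak3) slows translation and induces a stress program that includes Ddit3, and ATF6 is cleaved in the Golgi to release a transcription factor. These arms together raise transcription of chaperones, disulfide isomerases, degradation factors and vesicle components. Gene-level counts measure the amount of these mRNAs and hold no information on Xbp1 splicing, PERK phosphorylation or ATF6 cleavage.

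Smad7, the targeted gene, was measured at 71.4, 74.6 and 77.2 normalized CPM (read counts scaled to library size) in unstimulated control and 28.6, 28.4 and 31.1 CPM in unstimulated Smad7-KO libraries. After TGF-β1 it was at 145, 150.3 and 142 CPM in control libraries and at 80.8, 70.0 and 79.5 CPM in Smad7-KO libraries, so each Smad7-KO library was below each control library under the same treatment. Smad7 mRNA was thus lowered and not absent in Smad7-KO cells. With TGF-β1 its values there were higher than without it and overlapped those of unstimulated control libraries. Total counts ran from 19056916 to 25371321 per library. Unstimulated control library 2 stood apart, with 42.0% of its counts on genes shorter than 2000 bases against 24.2 to 32.3% in the other 11 libraries. Fibroblast markers (Col1a1, Col1a2, Col3a1, Vim and others) were high in sum in every library, with 12 markers summing to between 11176 and 14968 CPM. Not every marker was high, and Lum had group means of 0.537 to 1.53 CPM. Of the 12, 4 were called lower and 2 higher in Smad7-KO cells without TGF-β1, and 3 lower and 2 higher with it. Macrophage markers were also high, with 11 of 11 over 1 CPM in every library. Without TGF-β1 they summed to 15992 to 25764 CPM in control and 22887 to 25145 CPM in Smad7-KO libraries, and with it to 15930 to 18568 and 22035 to 25059 CPM. Of these 11 markers, 6 were called higher in Smad7-KO cells without TGF-β1, 5 with it, and 0 were called lower in either comparison. Endothelial markers summed to 618 to 686 CPM in control and 211 to 244 CPM in Smad7-KO libraries, with 10 or 11 of 12 genes over 1 CPM in the control groups, 7 of 12 in the Smad7-KO groups and Cldn5 at 0 in TGF-β1 Smad7-KO cells. Summed markers of cardiomyocytes (at most 80.5 CPM), smooth muscle and pericytes (64.6 to 101.9 CPM) and epicardium (267 to 456 CPM) were lower. Markers of secretory plasma cells, whose ER genes are very active, summed to 54.9 to 77.5 CPM, from 1 gene, Sdc1, over 1 CPM. In bulk RNA, fewer cells of a type and less RNA per cell cannot be told apart, and the part of these cells in the results below was not tested.

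Many of these genes are known targets of ATF6 and XBP1 through the ER stress element, a CCAAT box and a CCACG box with 9 bases between them. The letters of that element are shown here because genes with and without them are compared below. The 250 bases before the annotated start were searched on both strands in RefSeq promoter windows (GRCm38.p6), which matched 30 of the 36 genes. Manf, Hyou1, Atf6, Derl1, Creb3l1 and Kdelr2 had no window. CCAAT, then any 9 bases, then CCACG was found in 9 of 30 windows (Hspa5, Hsp90b1, Calr, Canx, Pdia6, Dnajc3, Creld2, Syvn1 and Derl3), against 0.113% of all 32851 windows searched in the same way. The related element II, ATTGG, then any base, then CCACG, was found in Herpud1 alone among the members and in 0.0304% of windows. Dnajb11 has these letters past the annotated start, outside the bases searched, and is counted below as having neither element. The match in Hspa5 lies in an annotated exon. TGACGTGG, an element bound by XBP1 and ATF6, was found in Sec24d and Kdelr3 and in 0.563% of windows. TGATGNAA, read by C/EBP-ATF dimers such as those of CHOP and ATF4, was found in Herpud1 and in 3.45% of windows. A match describes these letters and does not show binding. The sequences below run 5′ to 3′ on the strand of the gene, with the match in capitals and 20 bases on either side, and the 2 for Creld2 and Kdelr3 match on the opposite strand.
Hsp90b1 (chr10.0:86705618.0-86705676.0, minus strand): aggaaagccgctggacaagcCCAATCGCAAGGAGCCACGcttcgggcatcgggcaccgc
Canx (chr11.0:50325780.0-50325838.0, minus strand): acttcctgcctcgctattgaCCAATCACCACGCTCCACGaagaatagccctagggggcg
Pdia6 (chr12.0:17266471.0-17266529.0, plus strand): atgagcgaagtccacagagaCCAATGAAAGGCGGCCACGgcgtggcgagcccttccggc
Dnajc3 (chr14.0:118937807.0-118937865.0, plus strand): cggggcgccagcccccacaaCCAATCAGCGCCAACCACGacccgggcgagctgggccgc
Creld2 (chr15.0:88819500.0-88819558.0, plus strand): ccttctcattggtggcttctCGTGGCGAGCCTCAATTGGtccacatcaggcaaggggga
Herpud1 (chr8.0:94386357.0-94386407.0, plus strand): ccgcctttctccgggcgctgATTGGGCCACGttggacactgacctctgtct
Kdelr3 (chr15.0:79516358.0-79516405.0, plus strand): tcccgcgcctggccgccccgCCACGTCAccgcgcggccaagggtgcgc

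On the FPKM scale, which divides by gene length and library total, the most abundant of the 36 in unstimulated control cells were genes of protein folding. Calr, a lectin chaperone that binds calcium, stood at 563 ± 46.3 FPKM (SD, n = 3), Serpinh1 (HSP47, a chaperone of procollagen) at 519 ± 101, Hspa5 (BiP, the main ER chaperone) at 461 ± 75.1, Pdia3 at 410.4 ± 88.6 and P4hb at 352 ± 14.1. Among these 5, neighbours in order lay within their summed SDs, and Calr was above P4hb in all 3 libraries. The next gene, Pdia6, was well below P4hb at 177 ± 39.8 FPKM. The other lectin chaperone, the membrane protein Canx, had 147 ± 17.3 FPKM and Hsp90b1 (GRP94) 175 ± 9.51 FPKM. The 3 sensors were among the 4 least abundant genes, with Atf6 at 12.0 ± 4.63, Eif2ak3 at 9.89 ± 2.73 and Ern1 at 7.40 ± 3.30 FPKM. Derl3, a derlin of the degradation channel, was lowest at 0.761 ± 0.116 FPKM. Ddit3, which encodes the stress factor CHOP, had a mean of 132 ± 67.7 FPKM and a wide spread.

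**Figure D1:**
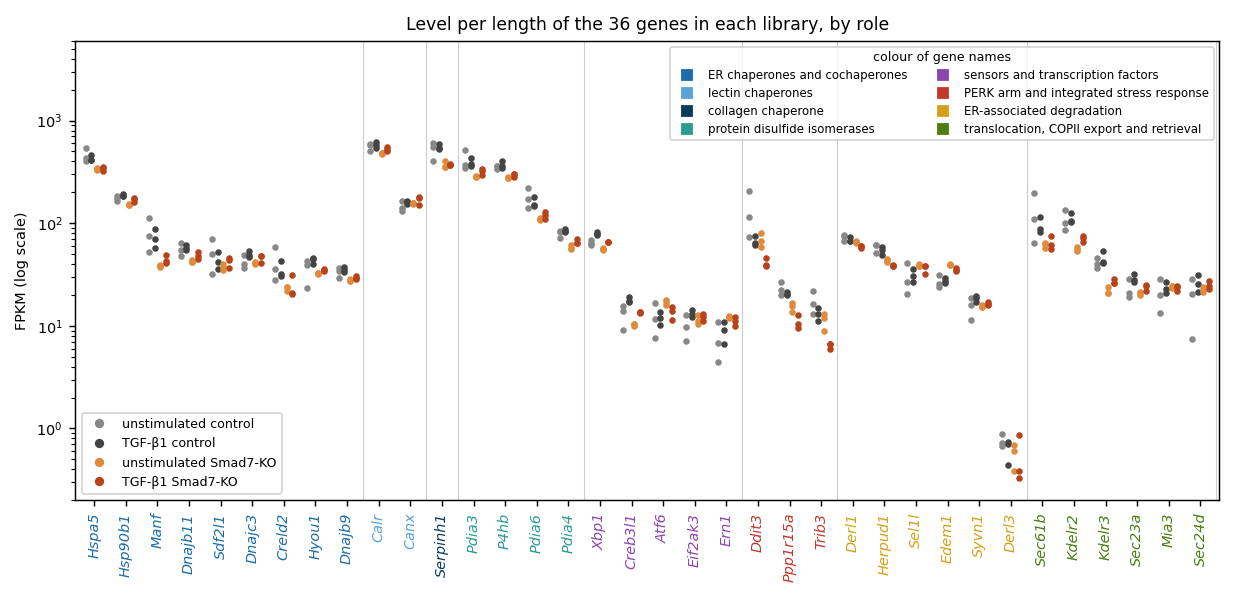
Level of each of the 36 genes in each of the 12 libraries as FPKM on a log axis, grouped by role, with point colour for the group. Folding genes such as Calr, Serpinh1 and Hspa5 lie near the top, and the sensors Atf6, Eif2ak3 and Ern1 near the bottom, with Derl3 lowest in all groups.

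The first comparison set unstimulated Smad7-KO against unstimulated control cells. The secretory and folding genes were mostly lower in unstimulated Smad7-KO than in unstimulated control fibroblasts. Of the 36, 15 fell and 2 rose at an adjusted p of 0.05 or less (edgeR quasi-likelihood test, Benjamini-Hochberg over all genes tested), against 25.8% of all genes called, 13.7% lower and 12.1% higher. The 15 are 41.7% of the set. The count moved with the libraries in the fit: edgeR on the 6 unstimulated libraries alone called 1 member, and leaving out unstimulated Smad7-KO library 1, 2 or 3 from the fit on all libraries left 5, 4 or 5 called. The median log2 fold change was −0.35 over the 36 and −0.02 over all genes tested, and 28 of 36 values were below 0. All 4 disulfide isomerases, Serpinh1, 4 of 9 chaperones and 2 of 3 genes of the PERK arm and the integrated stress response fell. So did 3 of 6 translocation and transport genes and 1 of 6 degradation genes. The 2 that rose were a sensor and a degradation gene. In 18 genes all 3 Smad7-KO libraries lay below all 3 control libraries, which held for 19.2% of all genes. In 2 they lay above, a count for which no share over all genes is given here. With 3 libraries against 3 a two-sided exact permutation test of 1 gene cannot give a p under 0.1, so calls rest on the fit across genes. Together the 36 genes took 1.01 to 1.07% of counts in unstimulated control and 0.844 to 0.858% in unstimulated Smad7-KO libraries.

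Gene positions are those of the deposited table (GRCm38). Hspa5 (ENSMUSG00000026864, chr2:34771970-34776531), which encodes BiP, was measured at 1109, 1555 and 1014 CPM (control) and 857, 888 and 878 CPM (Smad7-KO) without TGF-β1, and 1048, 1202 and 1075 CPM (control) and 932, 858 and 925 CPM (Smad7-KO) with it. Without TGF-β1 each Smad7-KO library was below each control library, and Hspa5 fell (log2 fold change −0.49, SE 0.15, adjusted p = 0.0342). Manf (ENSMUSG00000032575, chr9:106838312-106891979), a small secreted ER stress protein that binds BiP, was at 166, 274 and 112 CPM (control) and 83.4, 88.0 and 86.2 CPM (Smad7-KO) without TGF-β1, and 127, 197 and 157 CPM (control) and 97.3, 94.3 and 113 CPM (Smad7-KO) with it. It fell 2.14-fold (log2 fold change −1.10, SE 0.26, adjusted p = 0.0146), with no overlap between the groups although control library 2 was far above the others. Creld2, another secreted ER stress protein, fell by 0.86 on the log2 scale (adjusted p = 0.0441) and Dnajb11, a BiP cochaperone, by 0.42 (adjusted p = 0.0477). The other 5 chaperones were below 0 and not called, with log2 fold changes of −0.23 for Hsp90b1, −0.29 for the BiP cochaperone Dnajb9, −0.05 for Dnajc3 (P58IPK), −0.49 for Sdf2l1 and −0.12 for Hyou1 (GRP170, a nucleotide exchange factor of BiP). The lectin chaperones were at −0.27 for Calr and 0.08 for Canx and neither was called.

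The disulfide isomerases, which form and rearrange disulfide bonds in the ER, moved together. Pdia6 had a log2 fold change of −0.73 (adjusted p = 0.0160), Pdia3 (ERp57, the partner of the lectin chaperones) −0.58 (adjusted p = 0.0320), Pdia4 −0.46 (adjusted p = 0.00335) and P4hb, which is also a subunit of collagen prolyl 4-hydroxylase, −0.37 (adjusted p = 0.0295). Their libraries did not overlap between the groups in any of the 4. Serpinh1 (ENSMUSG00000070436, chr7:99345375-99353230) was measured at 1401, 1055 and 1267 CPM (control) and 964, 840.1 and 845 CPM (Smad7-KO) without TGF-β1, and 1248, 1397 and 1291 CPM (control) and 896, 894 and 925 CPM (Smad7-KO) with it. Each Smad7-KO library was below each control library in both treatments, and Serpinh1 fell (log2 fold change −0.49, SE 0.12, adjusted p = 0.0152) in unstimulated cells. A list of 6 cargo genes held the fibrillar collagen genes Col1a1, Col1a2, Col3a1, Col5a1 and Col5a2, cargo of Serpinh1, and the fibronectin gene Fn1. Of these 6, 0 were called by edgeR in this comparison (1 had an unadjusted p under 0.05), and their median log2 fold change was 0.01. With a trend on gene length removed, described below, 4 of the 6 were called lower, with a median of −0.34.

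KDEL receptors return escaped chaperones from the Golgi to the ER. Of their genes, Kdelr2 and Kdelr3 fell by nearly as much as any in the set. Kdelr1, which is outside the set, fell less without TGF-β1 (log2 fold change −0.48, SE 0.14, adjusted p = 0.0323). Kdelr2 (ENSMUSG00000079111, chr5:143403820-143421900) was measured at 183, 269.6 and 153 CPM (control) and 98.7, 107 and 102 CPM (Smad7-KO) without TGF-β1, and 184, 230.5 and 193 CPM (control) and 140.2, 124 and 135 CPM (Smad7-KO) with it. It was 1.97-fold lower without TGF-β1 (log2 fold change −0.98, SE 0.18, adjusted p = 0.00390). Kdelr3 (ENSMUSG00000010830, chr15:79516408-79527739) was at 55.4, 70.2 and 49.6 CPM (control) and 33.4, 29.0 and 29.2 CPM (Smad7-KO) without TGF-β1, and 57.1, 75.2 and 58.6 CPM (control) and 41.4, 37.4 and 37.4 CPM (Smad7-KO) with it. It was 1.91-fold lower (log2 fold change −0.93, SE 0.15, adjusted p = 0.00193). For Kdelr2 and Kdelr3 all Smad7-KO libraries lay below all control libraries in both treatments. Sec61b (ENSMUSG00000053317, chr4:47474658-47483242), a subunit of the translocation channel, had 77.7, 154 and 44.8 CPM (control) and 40.7, 45.7 and 44.6 CPM (Smad7-KO) without TGF-β1, and 58.6, 82.8 and 62.1 CPM (control) and 44.7, 41.4 and 55.8 CPM (Smad7-KO) with it. It was called lower (log2 fold change −1.07, SE 0.34, adjusted p = 0.0409), but control library 2 was far above libraries 1 and 3, and the highest Smad7-KO library was above control library 3. The COPII genes were not called, with log2 fold changes of −0.15 for Sec23a and 0.28 for Sec24d, inner coat subunits, and 0.22 for Mia3 (TANGO1, a receptor for procollagen at ER exit sites).

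Of the 5 sensors and transcription factors, 1 was called in unstimulated cells, and their values lay on both sides of 0. Ern1 (ENSMUSG00000020715, chr11:106394650-106487852) was measured at 46.6, 33.4 and 73.0 CPM (control) and 84.3, 86.2 and 82.1 CPM (Smad7-KO) without TGF-β1, and 74.2, 46.1 and 62.7 CPM (control) and 78.2, 85.9 and 70.8 CPM (Smad7-KO) with it. Each unstimulated Smad7-KO library was above each unstimulated control library, and Ern1 rose 1.65-fold (log2 fold change 0.72, SE 0.24, adjusted p = 0.0491). Xbp1 (ENSMUSG00000020484, chr11:5520659-5525893), the mRNA that IRE1 splices, was at 143, 143 and 132 CPM (control) and 117, 122 and 117 CPM (Smad7-KO) without TGF-β1, and 160.1, 175 and 166 CPM (control) and 142, 142 and 143 CPM (Smad7-KO) with it. Its Smad7-KO libraries were below the control libraries without overlap, at a difference that missed the threshold (log2 fold change −0.23, SE 0.08, adjusted p = 0.0563). Creb3l1 (ENSMUSG00000027230, chr2:91982328-92024502), which encodes OASIS, a membrane-bound factor known to act on collagen genes, was at 35.2, 25.8 and 39.2 CPM (control) and 26.9, 25.7 and 26.8 CPM (Smad7-KO) without TGF-β1, and 49.3, 44.5 and 44.9 CPM (control) and 35.9, 35.1 and 36.2 CPM (Smad7-KO) with it. Control library 2 lay within the Smad7-KO range, and the difference was not called (log2 fold change −0.34, SE 0.13, adjusted p = 0.0767). The log2 fold changes of the other 2 sensors were 0.50 for Atf6 and 0.19 for Eif2ak3, neither called.

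The genes of the PERK arm and the integrated stress response, which other kinases share, held some of the largest decreases. Ddit3 (ENSMUSG00000025408, chr10:127290774-127296288) was measured at 110.1, 217 and 68.2 CPM (control) and 56.6, 76.5 and 64.0 CPM (Smad7-KO) without TGF-β1, and 58.4, 72.2 and 61.6 CPM (control) and 37.7, 38.5 and 45.2 CPM (Smad7-KO) with it. It was called 2.01-fold lower in unstimulated Smad7-KO cells (log2 fold change −1.004, SE 0.32, adjusted p = 0.0410), yet the groups overlapped, since control library 2 was 217 CPM and control library 3 was below the highest Smad7-KO library. Ppp1r15a (ENSMUSG00000040435, chr7:45522916-45526268), which encodes GADD34, the phosphatase subunit that lets translation resume, was at 61.8, 81.9 and 53.9 CPM (control) and 38.1, 43.7 and 46.8 CPM (Smad7-KO) without TGF-β1, and 55.7, 59.9 and 55.1 CPM (control) and 26.8, 29.9 and 36.4 CPM (Smad7-KO) with it. It fell without overlap (log2 fold change −0.62, SE 0.16, adjusted p = 0.0204). Trib3 (ENSMUSG00000032715, chr2:152337422-152344032), a pseudokinase gene induced by ATF4 and CHOP, was at 32.7, 48.3 and 25.1 CPM (control) and 17.9, 26.1 and 23.8 CPM (Smad7-KO) without TGF-β1, and 22.4, 30.2 and 26.1 CPM (control) and 12.1, 13.8 and 13.8 CPM (Smad7-KO) with it. The unstimulated groups overlapped and the difference missed the threshold (log2 fold change −0.64, SE 0.22, adjusted p = 0.0527).

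In ER-associated degradation, which returns misfolded proteins to the cytosol, the genes moved in both directions. Edem1 (ENSMUSG00000030104, chr6:108828641-108859356), which encodes a lectin that routes misfolded glycoproteins to degradation, was measured at 146, 152 and 176 CPM (control) and 231, 229.5 and 226 CPM (Smad7-KO) without TGF-β1, and 168, 152 and 160.0 CPM (control) and 207, 218 and 204 CPM (Smad7-KO) with it. All Smad7-KO libraries lay above all control libraries in both treatments, and Edem1 rose 1.45-fold in unstimulated cells (log2 fold change 0.53, SE 0.09, adjusted p = 0.00312). Herpud1 (ENSMUSG00000031770, chr8:94386438-94395377), a membrane component of the degradation complex, was at 116, 129 and 96.0 CPM (control) and 80.1, 86.6 and 82.9 CPM (Smad7-KO) without TGF-β1, and 94.7, 115 and 105 CPM (control) and 75.5, 78.5 and 76.4 CPM (Smad7-KO) with it. It fell (log2 fold change −0.45, SE 0.12, adjusted p = 0.0202), again with no overlap. The rest were not called, with log2 fold changes of 0.41 for Sel1l and −0.01 for Syvn1, the adaptor and the ubiquitin ligase of the main complex, −0.19 for Derl1 and −0.47 for Derl3.

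**Figure D2:**
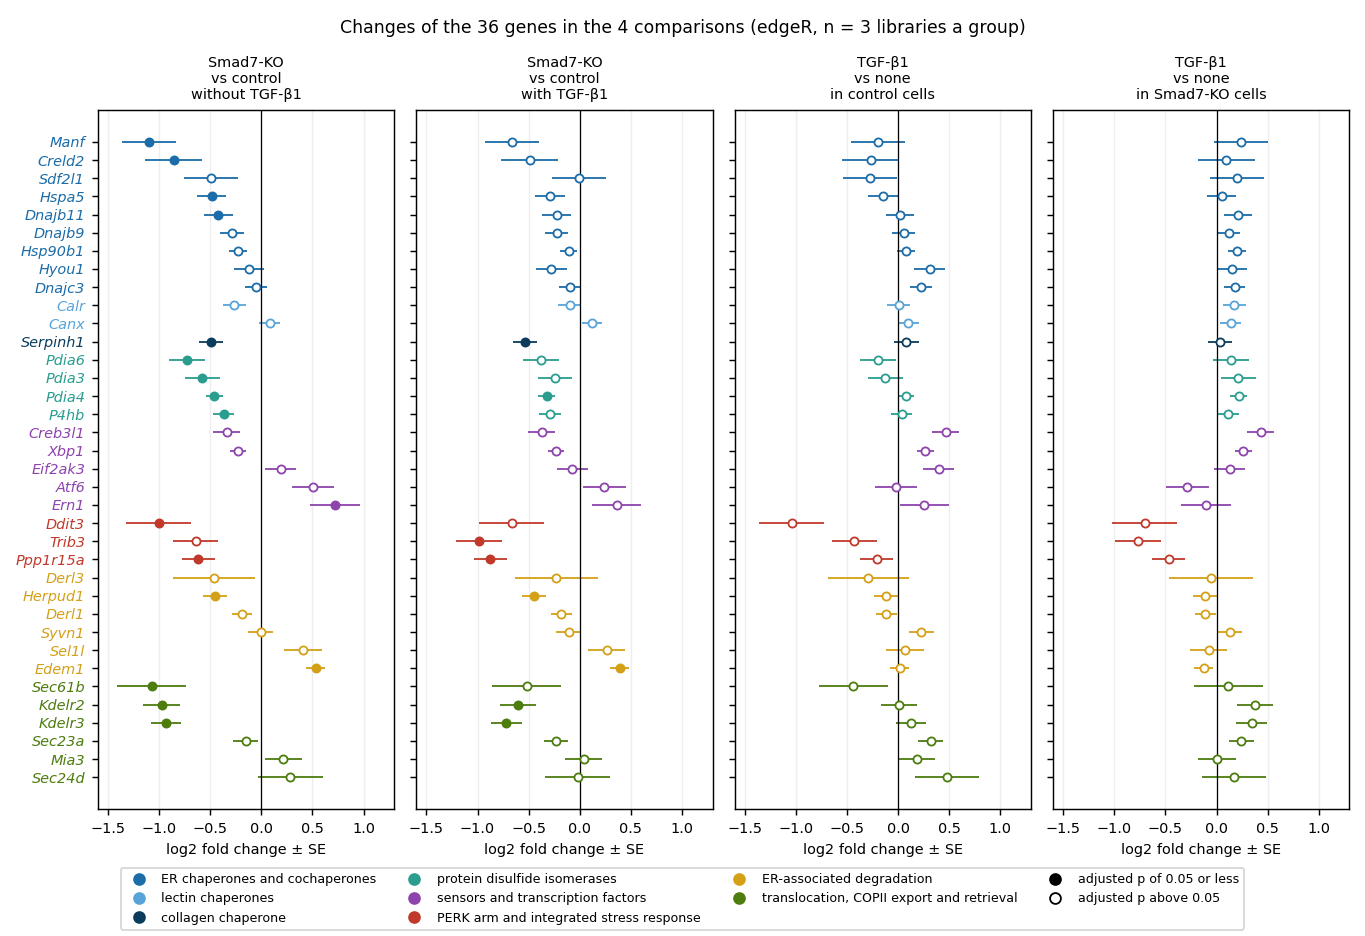
Log2 fold change with its standard error for each of the 36 genes in 4 comparisons, coloured by role, with filled points where the adjusted p was 0.05 or less. Filled points lie mostly below 0 in the 2 comparisons of Smad7-KO with control cells (15 of 17 and 7 of 8), and no point is filled in the 2 comparisons of TGF-β1 with no stimulation.

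The second comparison set TGF-β1 Smad7-KO against TGF-β1 control cells. Here 7 of the 36 fell and 1 rose, against 13% of all genes called, 7.23% lower and 5.72% higher. The median log2 fold change was −0.23 over the 36 and −0.02 over all genes, and 30 of 36 values were below 0. In 22 genes all Smad7-KO libraries lay below all control libraries, which held for 23% of all genes tested. The set took 1.04 to 1.12% of counts in the control and 0.875 to 0.911% in the Smad7-KO libraries. Trib3 and Ppp1r15a, of the PERK arm and the integrated stress response, had the largest decreases. Trib3 was 1.98-fold lower (log2 fold change −0.98, SE 0.23, adjusted p = 0.0154) and Ppp1r15a 1.83-fold lower (log2 fold change −0.88, SE 0.16, adjusted p = 0.00533), both without overlap. Ddit3, of the same group, was at −0.66 (adjusted p = 0.192). Kdelr3 fell 1.64-fold (log2 fold change −0.72, SE 0.15, adjusted p = 0.00903) and Kdelr2 1.52-fold (log2 fold change −0.61, SE 0.18, adjusted p = 0.0441). Serpinh1 (log2 fold change −0.54, SE 0.12, adjusted p = 0.0132), Herpud1 (log2 fold change −0.45, SE 0.12, adjusted p = 0.0271) and Pdia4 (log2 fold change −0.32, SE 0.08, adjusted p = 0.0247) fell as well. Edem1 rose 1.31-fold (log2 fold change 0.39, SE 0.09, adjusted p = 0.0186).

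Several genes called without TGF-β1 were not called with it. Hspa5 was at −0.29 (adjusted p = 0.209), Manf at −0.66 (adjusted p = 0.122), Sec61b at −0.52 (adjusted p = 0.323) and Ern1 at 0.36 (adjusted p = 0.341). Xbp1 and Creb3l1 were at −0.23 (adjusted p = 0.0823) and −0.37 (adjusted p = 0.0875), with no overlap between the groups in either gene. Whether the Smad7-KO effect differed between treatments was tested as an interaction. It was called for 0 of the 36 by edgeR, with 0 at an unadjusted p under 0.05 and 0 by DESeq2, against 0.0198% of all genes called. The interaction estimates ran from −0.36 for Ern1 to 0.55 for Sec61b on the log2 scale. The 2 Smad7-KO comparisons share no libraries, but each shares its control libraries with a TGF-β1 comparison.

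**Figure D3:**
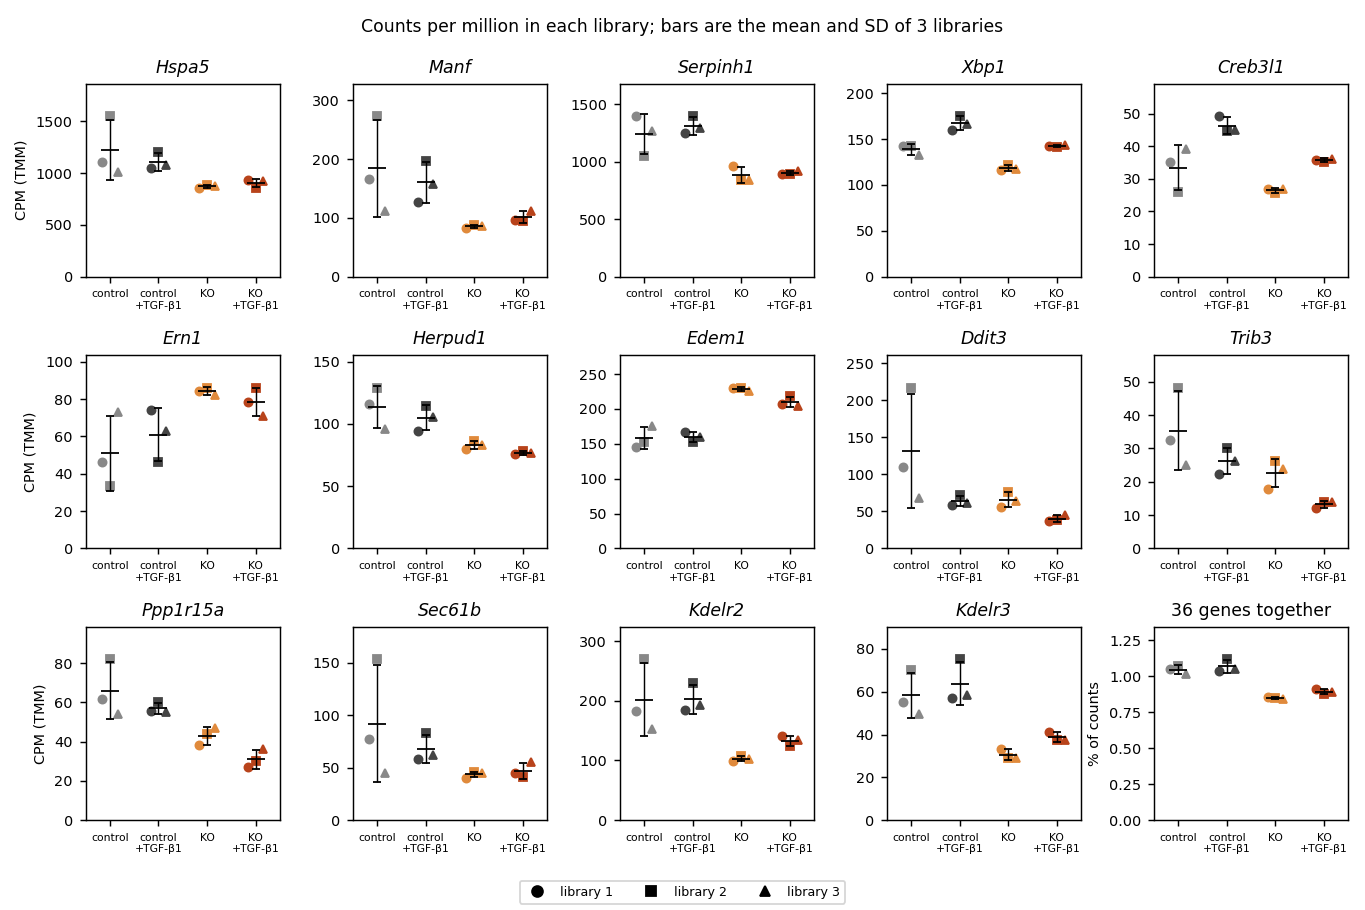
CPM in each of the 12 libraries for 14 genes, with circles, squares and triangles for libraries 1, 2 and 3 and bars for the mean and SD of 3, and, in the last panel, the 36 genes together as a percent of all counts. Unstimulated control library 2 is the highest point for Ddit3 (217 CPM), Sec61b, Manf and Kdelr2, and in the last panel the Smad7-KO libraries (0.844 to 0.911%) lie below all control libraries (1.01 to 1.12%).

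The remaining comparisons set TGF-β1 against no stimulation within each genotype. In control cells edgeR called 0 of the 36, against 8.37% of all genes. At an unadjusted p under 0.05 there were 5, and DESeq2 called 3 (Xbp1 and Creb3l1 higher, Ddit3 lower) and limma on FPKM 1 (Xbp1). Shares of all genes for these counts are not given here, and the 8.37% belongs to the adjusted calls of edgeR. Creb3l1 (log2 fold change 0.47, SE 0.13, adjusted p = 0.0533) and Xbp1 (log2 fold change 0.27, SE 0.08, adjusted p = 0.0708) had higher values in each TGF-β1 library than in each unstimulated one. Hsp90b1 was the other gene with no overlap, at a log2 fold change of 0.08. These 3 genes compare with 19.8% of all genes without overlap in either direction. Ddit3 was lower on average (log2 fold change −1.04, SE 0.32, adjusted p = 0.0717), with library 2 of the TGF-β1 group above unstimulated library 3. The COPII genes Sec24d and Sec23a and the sensor Eif2ak3 had log2 fold changes of 0.48, 0.32 and 0.40, none called.

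In Smad7-KO cells edgeR again called 0 of the 36, against 10.2% of all genes. The count at an unadjusted p under 0.05 was 8, and DESeq2 called 5 (Hsp90b1, Pdia4, Xbp1 and Creb3l1 higher, Trib3 lower) and limma on FPKM 2 (Trib3 and Ppp1r15a lower). The 10.2% is no reference for these counts, whose shares over all genes are not given here. The groups did not overlap in 15 genes with TGF-β1 higher and 7 with TGF-β1 lower, against 39% of all genes in either direction. Trib3 (log2 fold change −0.77, SE 0.23, adjusted p = 0.0517), Creb3l1 (log2 fold change 0.43, SE 0.13, adjusted p = 0.0654) and Xbp1 (log2 fold change 0.26, SE 0.08, adjusted p = 0.0660) came nearest to the threshold. Kdelr2 and Kdelr3 had values of 0.38 (adjusted p = 0.266) and 0.34 (adjusted p = 0.214), and Ppp1r15a and Ddit3 of −0.47 (adjusted p = 0.105) and −0.70 (adjusted p = 0.244). The groups differed in spread: the median coefficient of variation over the 36 was 22.0% in control and 2.72% in Smad7-KO libraries without TGF-β1, and 8.60% and 6.60% with it. All comparisons shared 1 estimate of the spread over 12 libraries, and with edgeR on only the 6 Smad7-KO libraries 15 of the 36 were called, among them Xbp1 (0.27, adjusted p = 0.00271) and Creb3l1 (0.44, adjusted p = 0.000372) higher and Ddit3 (−0.69, adjusted p = 0.000234) and Trib3 (−0.76, adjusted p = 0.000388) lower. The 10.2% of all genes belongs to the fit on 12 libraries and is no reference for these 15.

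Gene length moved with the differences in unstimulated cells. Over all genes tested, the median log2 fold change of Smad7-KO over control was −0.39 among the shortest genes (up to 2250 bases), −0.01 among those between and 0.29 among the longest (3896 bases or more), in 3 bins of nearly equal size. Of the members, 14 were in the shortest bin, of which 8 fell (22.0% of genes of that length fell), and 11 in the middle bin, of which 7 fell (13.6%). The 11 longest members held the 2 that rose, Ern1 and Edem1, and none that fell, beside 21.4% of genes of that length higher and 5.62% lower. After each library's trend on length was removed, 18 members fell and 1 rose, with a median of −0.29. Hspa5 (−0.39), Manf (−0.89), Kdelr2 (−0.67) and Kdelr3 (−0.53) remained called, and Hsp90b1, Dnajc3, Hyou1 and Sec23a were called lower in addition. Creld2 (−0.38, adjusted p = 0.0509) and Edem1 (0.16, adjusted p = 0.250) were no longer called. Ern1 went to 0.35, still called, Sec61b to −0.38 and Ddit3 to −0.37. In TGF-β1 cells the same fit called 12 lower and 0 higher. For TGF-β1 it called 5 members in control cells (Xbp1, Eif2ak3, Sec23a and Creb3l1 higher, Ddit3 lower) and 9 in Smad7-KO cells (Hsp90b1, Xbp1, Sec23a, Kdelr2 and Kdelr3 higher, Atf6, Ddit3, Trib3 and Ppp1r15a lower). Shares of all genes called with the trend removed are not given here, so these counts have no reference.

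**Figure D4:**
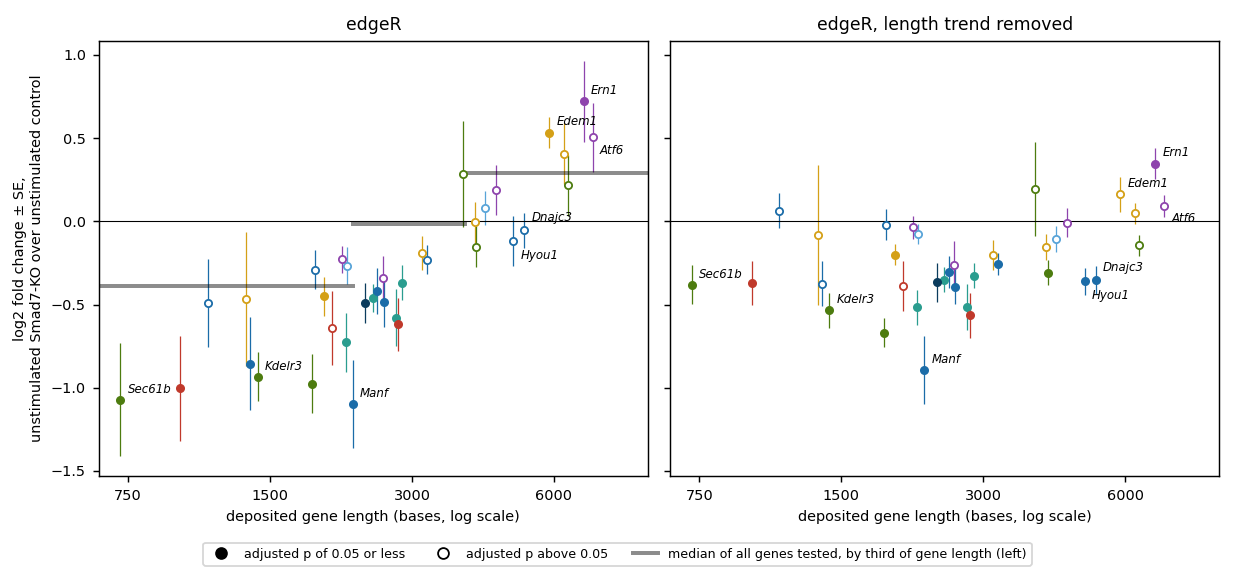
Log2 fold change with its standard error of each of the 36 genes in unstimulated Smad7-KO over unstimulated control cells against gene length in bases on a log axis, before (left) and after (right) removal of each library's length trend. On the left the grey bars give the medians of all genes tested by bin of length (−0.39, −0.01 and 0.29), and the members had medians of −0.68, −0.42 and 0.19 in the same bins, whereas on the right Edem1 moves from 0.53 to 0.16 and most members stay below 0.

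Unstimulated control library 2 was the highest of its group in 20 of the 36 genes and the lowest in 11. Without it, 13 members fell and 1 rose in unstimulated cells. Hspa5 (−0.28, adjusted p = 0.0426), Pdia3 (−0.31, adjusted p = 0.0362), Pdia6 (−0.47, adjusted p = 0.0162) and Manf (−0.69, adjusted p = 0.0178) were still called, at smaller differences, and Hyou1 (−0.30, adjusted p = 0.0211) and Creb3l1 (−0.49, adjusted p = 0.00266) were called lower as well. The calls of Ddit3 (−0.43, adjusted p = 0.114), Sec61b (−0.48, adjusted p = 0.125), Creld2 (−0.42, adjusted p = 0.136), Ern1 (0.50, adjusted p = 0.105) and Dnajb11 were lost. In TGF-β1 cells, where this library enters through the shared fit, 15 then fell and 1 rose, with Hspa5 (−0.27, adjusted p = 0.0208), Manf (−0.64, adjusted p = 0.0119), Ddit3 (−0.65, adjusted p = 0.0139), Xbp1 (−0.21, adjusted p = 0.0333) and Creb3l1 (−0.36, adjusted p = 0.00626) among those lower. Shares of all genes called without this library are not given here, so these counts have no reference. The genes that carry an ER stress element or element II did not stand apart in counts: without TGF-β1, 4 of 10 fell, 0 rose and the median log2 fold change was −0.36, and of the 20 with neither, 9 fell, 2 rose and the median was −0.39. With TGF-β1, 1 of 10 fell (median −0.17) and of the 20 others 5 fell and 1 rose (median −0.23). Reads could not be assigned to a strand from the sources used here, and 11 members overlap another gene of the table, among them Manf, Ddit3, Ppp1r15a, Herpud1 and Kdelr3, so part of their counts may belong to the neighbour.

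Other genes of the same pathways, in lists that leave out the 36, were lower by varying counts. In unstimulated Smad7-KO cells, 7 of 18 other disulfide and prolyl isomerases of the ER fell and 1 rose (median −0.52). The lowest were Fkbp7 (−1.18, adjusted p = 0.0102) and Fkbp10 (−0.93, adjusted p = 0.00136), prolyl isomerases of the ER, the latter known to act on collagen. Of 24 genes of the translocon, signal peptidase and oligosaccharyltransferase, 8 fell (median −0.36), led by the signal peptidase subunit Spcs1 (−0.88, adjusted p = 0.0375) and the oligosaccharyltransferase subunit Dad1 (−0.75, adjusted p = 0.0280). Of 22 other COPII and export genes, 6 fell (median −0.20), led by the GTPase genes Sar1a (−0.57, adjusted p = 0.00106) and Sar1b (−0.55, adjusted p = 0.0280). Of 11 COPI genes, 2 fell, Copz2 (−1.33, adjusted p = 0.00510) and Cope (−0.68, adjusted p = 0.0369). Of 14 other degradation genes, 2 fell, Vimp (−0.85, adjusted p = 0.0167) and Ufd1l (−0.48, adjusted p = 0.0279). The last 2 lists were at 18.2% and 14.3% lower, near the 13.7% of all genes.

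Targets of the integrated stress response, which PERK shares with other kinases, fell in 6 of 15 cases without TGF-β1 (median −0.45), led by Nupr1 (−1.13, adjusted p = 0.0109) and Chac1 (−0.87, adjusted p = 0.0192), which encodes an enzyme that degrades glutathione. With TGF-β1, 5 of 15 fell (median −0.43), led by Chac1 (−1.45, adjusted p = 0.00217). In that comparison 5 of 18 other isomerases fell, the lowest being Txndc5 (−0.97, adjusted p = 0.000159), a disulfide isomerase of the ER, with a mean of 687 ± 14.2 CPM in control and a lower mean of 351 ± 4.20 CPM in Smad7-KO cells (SD, n = 3), and Fkbp10 (−0.85, adjusted p = 0.00274). Of the translocon and glycosylation list 1 fell, Rpn2 (−0.32, adjusted p = 0.0495), of the COPII list Sar1a (−0.60, adjusted p = 0.00101), and of the COPI list Copz2 (−0.91, adjusted p = 0.0367). Of the 6 cargo genes Col5a2 fell (−0.63, adjusted p = 0.0279), and of the other degradation genes 0 by edgeR (4 at an unadjusted p under 0.05). The translocon, COPII and COPI lists were thus at 4.17%, 4.55% and 9.09% lower, near the 7.23% of all genes.

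A list of 11 tested genes held ER membrane-bound factors, their processing enzymes, and the death genes Bcl2l11 and Bbc3. Of the 11, 2 rose and 1 fell in unstimulated Smad7-KO cells, a count of 27.3% called against 25.8% of all genes. Bcl2l11 (BIM, a death gene induced by CHOP) was at 1.12 (adjusted p = 0.000169) and the protease gene Mbtps2 at 0.60 (adjusted p = 0.0141). The transcription factor gene Creb3 was at −0.82 (adjusted p = 0.0231). Bcl2l11 also rose with TGF-β1 (0.89, adjusted p = 0.000812). The OASIS relative Creb3l2, which drives secretory genes including those of COPII in cartilage, answered TGF-β1 in both genotypes. It was at 85.5 ± 34.2 CPM in unstimulated and 383 ± 62.6 CPM in TGF-β1 control cells (log2 fold change 2.16, adjusted p = 0.000147), and at 75.1 ± 4.11 and 286 ± 12.8 CPM in Smad7-KO cells (1.93, adjusted p = 0.000257). Other calls on TGF-β1 in the pathway lists were few. In control cells, Arfgap3 rose among COPI genes (0.40, adjusted p = 0.0331) and Bbc3 (PUMA, a death gene) fell (−0.79, adjusted p = 0.00603). In Smad7-KO cells, Ube2j1, an ER ubiquitin-conjugating enzyme, rose (0.39, adjusted p = 0.0267), Nupr1 rose (0.99, adjusted p = 0.0271) and Slc7a11, the cystine transporter, fell (−0.96, adjusted p = 0.0178).

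Heat shock genes, taken as a contrast outside the ER, fell in 5 of 12 cases in unstimulated Smad7-KO cells (41.7%, against 13.7% of all genes, median −0.33). The largest decreases were in Hspb1 (−1.43, adjusted p = 0.00233) and Bag3 (−0.51, adjusted p = 0.00234). With TGF-β1, 3 of 12 fell (25%, against 7.23% of all genes, median −0.20), again including Hspb1 (−0.83, adjusted p = 0.0384) and Bag3 (−0.45, adjusted p = 0.00585). TGF-β1 lowered Hspa1b in control cells (−1.09, adjusted p = 0.000251) and in Smad7-KO cells (−0.81, adjusted p = 0.00164), lowered Hspa1a in control cells (−0.98, adjusted p = 0.00911) and raised Bag3 in control (0.62, adjusted p = 0.000613) and Smad7-KO cells (0.68, adjusted p = 0.000257). Lower values in Smad7-KO cells were also measured in stress genes that do not act in the ER.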

How the data were processed

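RNA-Seq libraries of 4 groups of mouse cardiac fibroblasts, 3 each, were analysed from the deposited table. Per the labels and the study's methods, polyadenylated RNA was sequenced as paired-end reads, and the submitters' processing notes name TopHat2 2.0, HTSeq 0.6.1, Cufflinks 2.1.1, mm10 and GRCm38.p6. Use of strand in counting is not given in the sources used here. The authors deposited raw read counts per gene, whole numbers without normalization, and FPKM, which matched counts scaled by length and by library total in 35275 of 35275 genes. Values of 0 columns were without a sample.

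The counts went into edgeR 4.0.16 under R 4.3.3 (filterByExpr with a minimum count of 10, TMM, robust quasi-likelihood fit on all 12 libraries). Genes at a Benjamini-Hochberg adjusted p of 0.05 or less over 15150 genes were called. Each standard error (SE) is the size of a coefficient over the square root of its F statistic. CPM values carry the TMM factors. Groups come from the sample labels. Depth was 19056916 to 25371321 counts per library. Sequences and motifs were read in Python 3.11.15.

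The members and lists were chosen with earlier results of these data known. Every member was named. Values in every library were given for Hspa5, Xbp1, Ddit3, Herpud1, Serpinh1 and Creb3l1 and for the 4 largest increases and the 4 largest decreases among members called in each comparison, and up to 2 genes were named from each other list. Kdelr1 and Mbtps2 were named in addition. Alternatives were DESeq2 1.42.0, limma 3.58.1 on log2(FPKM + 1) and log2(FPKM + 0.1), DESeq2's size factors, no filter, only the libraries of a comparison, a replicate block, a loess fit on gene length (span 0.3) taken out of each library and leaving out each library. Length removal without unstimulated control library 2, and leaving out library 2 of both control groups, were added after the data were seen. Scripts were tested on simulated data with known changes.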

Additional observations from a re-analysis of the deposited data

How the results depend on the processing

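Counts of members called (17 and 8 for Smad7-KO against control without and with TGF-β1, 0 for TGF-β1 in each genotype and for the interaction) moved with the fit, and no member called changed direction under any alternative run. Over alternatives and calls, 450 stayed past the threshold and 183 did not. For Smad7-KO without TGF-β1 the count was 8 by DESeq2 and 1 by edgeR when each saw just the 6 libraries compared, and 11 without the filter, by edgeR or limma. With TGF-β1 it was 18 and 16 by those comparison-only fits, 23 without the unstimulated control libraries, 5 without the filter, and 23 with length removed and unstimulated control library 2 left out. For TGF-β1 in control cells it was 3 by DESeq2, 1 by limma with either pseudocount (1 or 0.1), 5 with length removed, 4 with length removed in a replicate block, 7 with length removed and library 2 left out, and 1 without library 2 of both control groups. In Smad7-KO cells it was 5 by DESeq2, 15 by each comparison-only fit, 9 without the unstimulated control libraries, 1 without the filter, 2 by limma with either pseudocount, 9 with length removed, 6 with length removed in a replicate block, 16 with length removed and library 2 left out, and 9 without library 2 of both control groups. The interaction stayed at 0 by edgeR, DESeq2 and limma. The cause was not tested. Shares of all genes called under each alternative are not given here, so a changed count may reflect a fit that calls more or fewer genes of any kind. Leaving out 1 library gave 4 to 26 without TGF-β1 (4 without unstimulated Smad7-KO library 2, 5 without library 1 or 3, 8 without unstimulated control library 1, 10 without TGF-β1 control or Smad7-KO library 3, 11 without TGF-β1 Smad7-KO library 1 or 2, 26 without unstimulated control library 3). With TGF-β1 it gave 1 to 16 (1 without TGF-β1 control library 2, 2 without TGF-β1 Smad7-KO library 1 or 2, 4 without TGF-β1 control library 3, 5 without TGF-β1 Smad7-KO library 3, and, of the unstimulated control libraries, 13 without library 3 and 16 without library 2). For TGF-β1 it gave 0 to 12 in control cells (12 without unstimulated control library 3, 2 without library 2) and 0 to 7 in Smad7-KO cells (7 without unstimulated control library 2, 5 without library 3, 1 without unstimulated Smad7-KO library 1), and 0 to 0 for the interaction. Of 25 alternatives without TGF-β1, Kdelr3 kept its call in 25, Pdia4 and Kdelr2 in 24, Hspa5 in 15, Ern1 in 10, and Dnajb11, Creld2, Ddit3 and Sec61b in 6. Of 26 with TGF-β1, Ppp1r15a kept it in 26 and Kdelr3 in 25. The replicate numbers were not used as a pairing in the main fit: of 18 same-numbered pairs, correlations ran from −0.357 to 0.524 and 1 was over 0.1. That pair was library 2 of unstimulated control and of TGF-β1 control. These libraries had 42.0% and 31.5% of counts on genes shorter than 2000 bases, the highest of their groups, and what they share was not tested. With the replicate number as a block the counts were 14, 8, 0, 1 and 0.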
